A study of Mus musculus with 11 samples.

Results

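The retinoic acid receptors and a set of genes known as retinoic acid targets were examined in mouse T cells stimulated by dendritic cells of different organs. The members are the receptor genes Rara, Rarb and Rarg and the genes Cyp26a1, Dhrs3, Crabp2, Stra6 and Stra8. They were taken as all probe sets whose single gene symbol in the platform annotation is one of these names, which gave 9 probe sets for the 8 genes, out of 20380 probe sets with 1 symbol, for 12393 genes. Rarg had 2 probe sets and each other gene had 1. The members were chosen with earlier results of these data known. Their counts beside the shares of all probe sets are therefore no independent support for a direction.

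T cells of the B10.BR strain were cultured for 4 days with dendritic cells of the C57BL/6 strain, and total RNA of the T cells was hybridised to single-colour oligonucleotide arrays. The dendritic cells came from liver (3 arrays), from the organs abbreviated MLN (3 arrays) and PLN (3 arrays), or from spleen (2 arrays). The labels leave MLN and PLN unexplained; by custom they mean mesenteric and peripheral lymph nodes. All 4 groups share the T cell strain, the dendritic cell strain and the time, and there is no group of T cells without dendritic cells. The arrays carry replicate numbers 2, 3 and 4, which liver, MLN and PLN share, and spleen has 3 and 4. Separate animals or cultures are not named for arrays of the same organ, so every p-value below reflects only how far these arrays scatter, and that scatter may be technical. All 11 arrays had the same trimmed mean intensity of 500.2, pairwise correlations from 0.965 to 0.984, and from 12.9% to 16.5% of probe sets below an intensity of 16. Markers of T cells were abundant in every group, with intensities summed over 13 probe sets of 8 genes from 23905 to 31646 per array.

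Retinoic acid is made from vitamin A by way of retinaldehyde, whose oxidation is catalysed by retinaldehyde dehydrogenases such as Aldh1a2. It enters the nucleus and binds the retinoic acid receptors, which sit on DNA as pairs with a retinoid X receptor and switch on genes that carry a retinoic acid response element. Several of the induced genes act back on the pathway by storing, carrying or degrading retinoids. Dendritic cells of the gut and its lymph nodes are known to make retinoic acid and so to give T cells their gut-homing receptors.

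The response element of the textbook kind is a direct repeat of a 6-base half-site with 5 bases between the copies. RefSeq promoter windows on GRCm38.p6, from 250 bases before to 50 bases after an annotated start, were matched by symbol for 7 of the 8 members, in 16 windows; Crabp2 had none. The windows were searched on both strands for the half-sites AGGTCA (present in 16.3% of all windows), AGTTCA (in 14.0%), GGGTCA (in 13.7%) and GGTTCA (in 10.4%), any of them followed by any other or by itself at the stated distance. A repeat with spacing 5 was found in 2 of the 16 windows, those of Rarb and Cyp26a1, against 0.0974% of all 32851 windows. A repeat with spacing 2 was found in none of the 16, against 0.268% of all windows. Both are shown because it is the kind of element through which these 2 genes are known as direct targets. The half-sites are in capitals, with 6 bases on either side in lower case, read 5′ to 3′ on the strand where the half-sites match.
Rarb: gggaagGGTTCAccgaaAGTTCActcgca
Cyp26a1: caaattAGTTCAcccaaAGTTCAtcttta
The Rarb stretch is chr14:16575507-16575535 on the minus strand, the strand of the gene, and its repeat lies 53 to 37 bases before the start. The Cyp26a1 stretch is chr19:37697770-37697798, read on the minus strand while the gene is on the plus strand, and its repeat lies 32 to 16 bases before the start. Both lie inside the annotated span of their gene, which is chr14:16430839-17082331 for Rarb and chr19:37697738-37701536 for Cyp26a1. Whether they fall in an exon or an intron of another transcript was not analysed here. A match is a description of the letters and not evidence of binding.

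Among the members, no receptor probe set passed in an organ comparison, and their order of organs varied, with 1 of the Rarg probe sets highest in spleen and lowest in MLN cultures. Stra6, Crabp2, Dhrs3 and Cyp26a1 had their highest organ mean in MLN cultures and their lowest in liver cultures, as had Stra8 by a small margin. Stra6 stood out by its separation, with all 3 MLN arrays above all 8 other arrays. With the replicate number in the fit, Stra6 was the one member that passed in any organ comparison, as higher in MLN than in liver cultures. The plot of member levels by organ shows these patterns on log2(intensity + 16), the scale of all log2 values below, on which changes of genes of low intensity are understated.

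**Figure D1:**
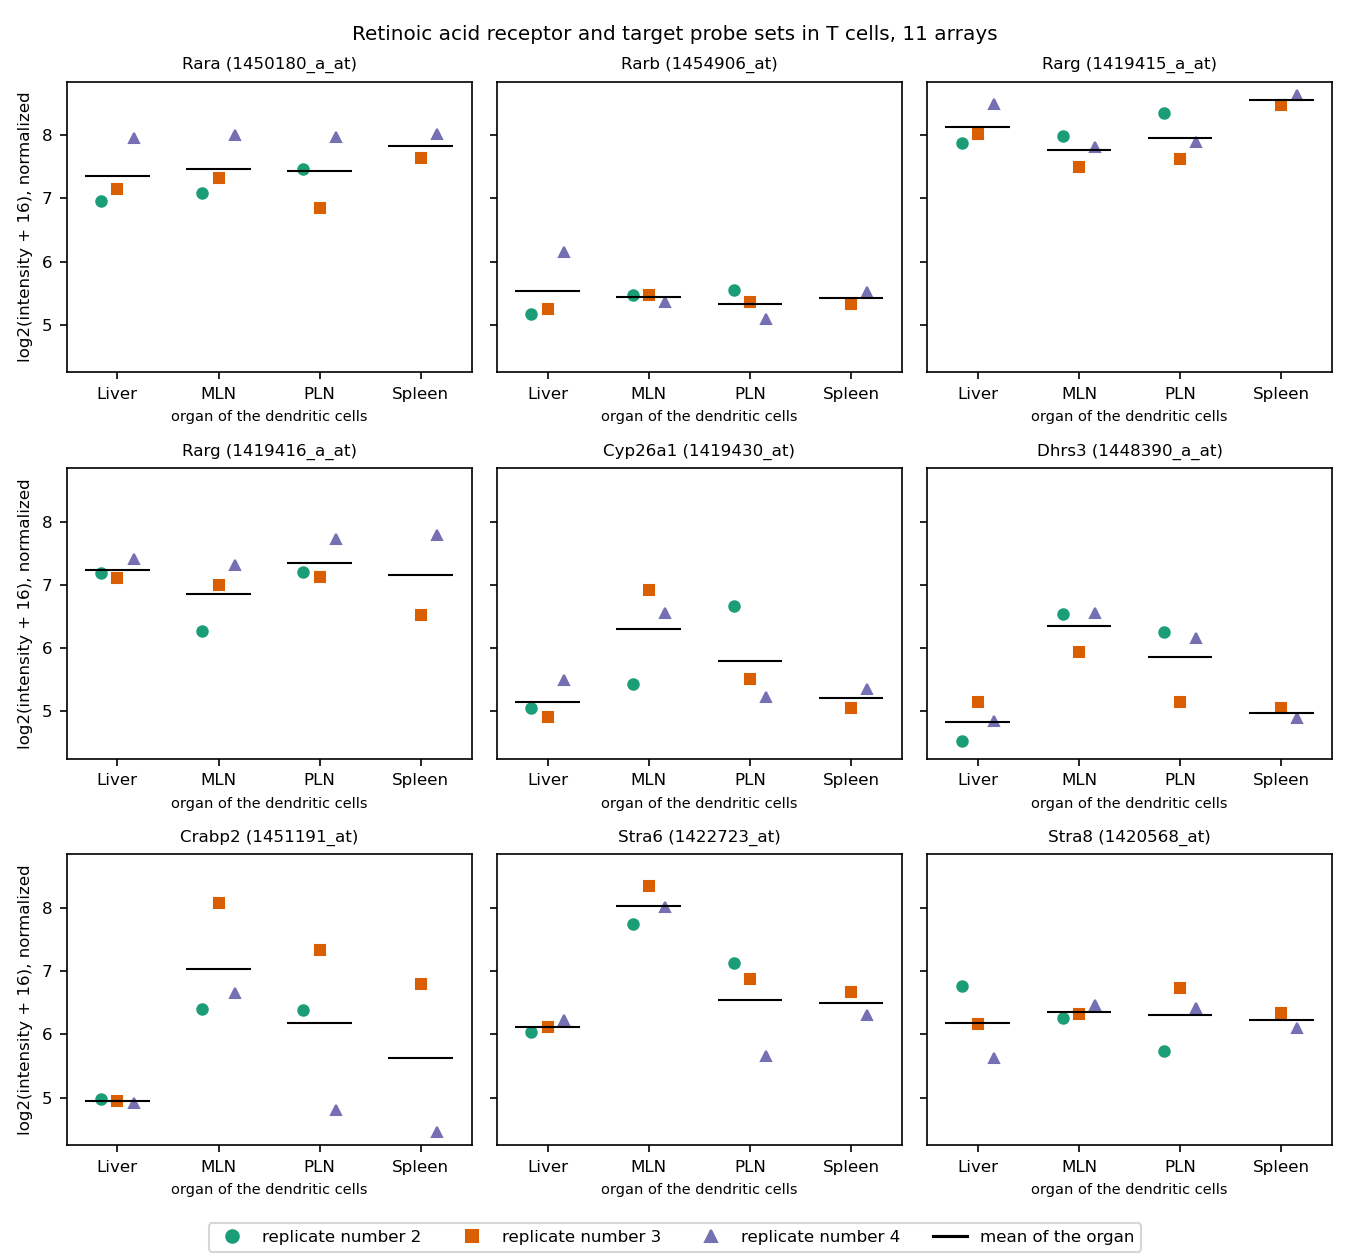
Quantile-normalized log2(intensity + 16) of the 9 member probe sets on the 11 arrays, by organ of the dendritic cells, with 1 point per array, the symbol and colour giving the replicate number and the black line the organ mean. The 3 MLN arrays lie above all other arrays for Stra6 and above all liver arrays for Crabp2 and Dhrs3, and the arrays numbered 4 lie above all others for Rara.

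Stra6 encodes the membrane receptor for retinol-binding protein, through which cells take up vitamin A. Its intensities were 195, 307 and 230 on MLN arrays 2, 3 and 4, and 51.1, 51.6 and 52.8 on the liver arrays of the same numbers. The PLN arrays gave 118, 95.9 and 41.0, and spleen arrays 3 and 4 gave 91.6 and 75.2. The MLN range thus began above the highest other array, and the liver arrays lay close together below both spleen arrays. PLN arrays 2 and 3 lay above both spleen arrays, and PLN array 4 lay below all liver arrays. Of all probe sets, 0.510% had all 3 MLN arrays above the arrays of the other 3 organs, and among the members this was 1 of 9. The order of mean log2 values was MLN (8.03 ± 0.30; SD, n = 3), PLN (6.55 ± 0.79; n = 3), spleen (6.49 ± 0.26; n = 2) and liver (6.12 ± 0.10; n = 3), with PLN and spleen overlapping. Within the replicate numbers, MLN exceeded liver by 1.71, 2.23 and 1.78, PLN by 0.60, 1.47 and 2.36, and spleen by 1.67 and 1.70. These comparisons share the MLN arrays.

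In limma without a block, Stra6 differed between MLN and liver by 1.90 (SE 0.35; adjusted p = 0.186) and between MLN and the average of the remaining organs by 1.64 (SE 0.29; adjusted p = 0.239), and neither passed the threshold of 0.05. In a fit that also held the replicate number (the blocked fit), it was higher in MLN than in liver (1.90, SE 0.32; adjusted p = 0.0385), while MLN against the mean of the other organs missed the threshold (1.63; adjusted p = 0.0530). That call depended on which arrays were in the fit. It was lost in the blocked fit without any one of the liver arrays (adjusted p = 0.0613 to 0.179), the MLN arrays (0.0849 to 0.170), PLN replicate 3 (0.0600), Spleen replicate 3 (0.0588) or Spleen replicate 4 (0.0578), and kept without PLN replicate 2 (0.0228) or PLN replicate 4 (0.0112). Without PLN replicate 4, the lowest of the PLN arrays, it also passed with no block (0.0276). With 1 array left out, the blocked estimate itself ran from 1.73 to 2.17.

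Crabp2, which encodes a binding protein that carries retinoic acid to its receptors, had intensities of 67.6, 252 and 71.7 on MLN arrays 2, 3 and 4, and 15.0, 13.2 and 12.6 on the liver arrays. The PLN arrays gave 63.4, 141 and 14.6, and spleen arrays 3 and 4 gave 102 and 7.90. All MLN arrays were above all liver arrays, while PLN and spleen each held 1 array, numbered 4, in or below the liver range. In order, the mean log2 values were 7.04 ± 0.90 for MLN (SD, n = 3), 6.18 ± 1.28 for PLN (n = 3), 5.63 ± 1.66 for spleen (n = 2) and 4.94 ± 0.03 for liver (n = 3), and every pair of neighbours overlapped. MLN exceeded liver by 1.43, 3.14 and 1.74 within the numbers, and by 2.10 in limma (SE 0.71; adjusted p = 0.789; blocked SE 0.46, adjusted p = 0.0806), which did not pass. Within a number it was also above PLN, by 0.02, 0.73 and 1.85, and above spleen, by 1.27 and 2.20.

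Dhrs3 encodes a reductase that turns retinaldehyde back into retinol and so limits the supply of retinoic acid. It had intensities of 75.4, 46.2 and 65.2 on MLN arrays 2, 3 and 4 against 6.70, 17.9 and 11.5 on liver arrays, again without overlap. PLN arrays 2 and 4 were close to the MLN arrays, at 57.2 and 64.3, and PLN array 3, at 17.6, was close to spleen arrays 3 and 4, at 19.2 and 17.5. The order of mean log2 values was MLN (6.34 ± 0.35; SD, n = 3), PLN (5.86 ± 0.62; n = 3), spleen (4.98 ± 0.11; n = 2) and liver (4.84 ± 0.31; n = 3); on the normalized scale PLN did not overlap spleen, and MLN overlapped PLN as spleen overlapped liver. MLN exceeded liver by 2.01, 0.80 and 1.70 within the numbers. The limma estimate was 1.50 (SE 0.32; adjusted p = 0.311; blocked adjusted p = 0.0747) and did not pass.

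Cyp26a1, the cytochrome P450 that degrades retinoic acid and one of the genes with the repeat shown above, had intensities of 26.7, 107 and 65.4 on MLN arrays 2, 3 and 4 and 16.8, 12.7 and 25.4 on liver arrays. PLN array 2 was high at 80.8 and PLN arrays 3 and 4 were at 26.5 and 26.0, while spleen arrays 3 and 4 had 19.4 and 30.6. All neighbours in the order MLN, PLN, spleen, liver overlapped. MLN was above liver within every number, by 0.37, 2.01 and 1.06, while its difference from PLN was -1.23 within number 2 and 1.41 and 1.32 within numbers 3 and 4. The limma difference between MLN and liver was 1.15 (SE 0.43; adjusted p = 0.890; blocked 0.369).

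MLN exceeded liver within all 3 numbers for 5 of 9 member probe sets, those 4 genes and Rara, and for 15.9% of all probe sets. On the normalized scale, all MLN arrays were above all liver arrays for 3 of 9 member probe sets, Stra6, Crabp2 and Dhrs3, and for 4.30% of all. For Cyp26a1 this held in deposited intensity alone, where MLN array 2 had 26.7 and liver array 4 had 25.4. After normalization these arrays were at 5.43 and 5.49. Crabp2, Dhrs3 and Cyp26a1 had intensities under 16 on 5, 2 and 1 arrays, a range in which 12.9% to 16.5% of all probe sets lay, and the file holds no detection calls, so their liver values are not known to be above background. The probe sets of Rara, Rarg and Stra6, 4 in all, lay in the upper 60% of probe sets by mean level and 5 did not.

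**Figure D2:**
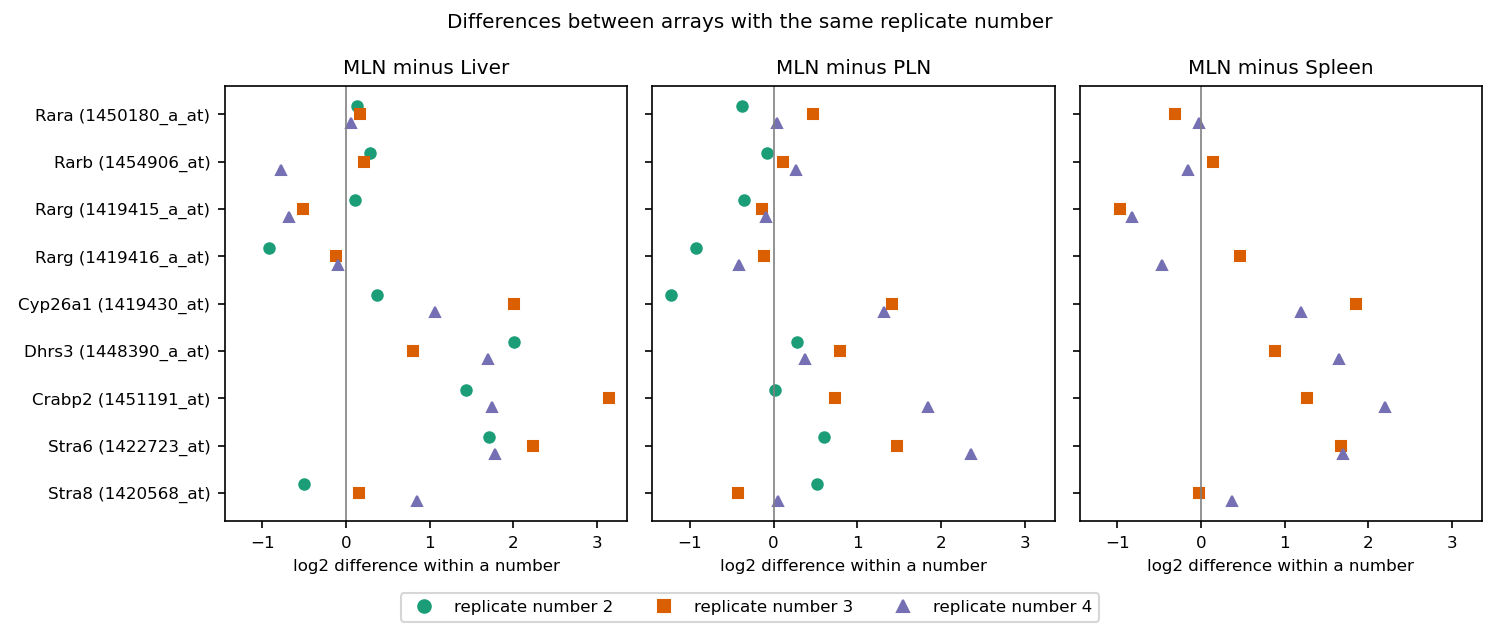
Log2 differences between the MLN array and the liver, PLN or spleen array of the same replicate number, for the 9 member probe sets, with 1 point per number (spleen has numbers 3 and 4); the 3 panels share the MLN arrays. Stra6, Crabp2, Dhrs3 and Cyp26a1 lie right of 0 in all numbers against liver and spleen, and Rara lies between 0.06 and 0.17 against liver.

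The receptor genes did not follow this order. Rara, the receptor found in most blood cells, was ordered spleen (mean log2 7.83 ± 0.27; SD, n = 2), MLN (7.47 ± 0.48; n = 3), PLN (7.43 ± 0.56; n = 3) and liver (7.35 ± 0.52; n = 3), and all neighbours overlapped. It differed between MLN and liver by 0.12 (SE 0.36). Its intensities were highest on the arrays numbered 4, at 223 in liver, 228 in MLN, 244 in PLN and 256 in spleen. The 7 arrays numbered 2 or 3 had 94.2 to 190. Mean log2 values were 7.17 and 7.24 for numbers 2 and 3, and 7.98 for number 4. In limma's F-test over the replicate numbers, with organ in the fit, Rara passed (adjusted p = 0.0176), as did 23.9% of all probe sets.

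Rarg, a further receptor, was measured by 2 probe sets that ordered the organs differently. Probe set 1419415_a_at had its highest intensities on spleen arrays 3 and 4, at 348 and 392. It had 227, 246 and 336 in liver, 236, 165 and 195 in MLN, and 300.3, 176 and 233 in PLN for numbers 2, 3 and 4. Both spleen arrays were above all others in deposited intensity, although after normalization spleen overlapped liver. The spleen difference from the other organs was 0.60 (SE 0.22; limma adjusted p = 1; blocked 0.534), and that of MLN was -0.45 (SE 0.19; adjusted p = 0.999; blocked 0.332). The other, 1419416_a_at, had spleen arrays far apart, at 81.1 and 218, and MLN arrays at 59.9, 113 and 129. Its spleen difference was 0.00 (SE 0.34) and its MLN difference -0.39 (SE 0.29), so both probe sets gave a negative value for MLN, and a positive value for spleen was given by 1419415_a_at alone. For this probe set, too, the arrays numbered 4, at 129 to 218, were above all others after normalization, although it did not pass the F-test over the numbers (adjusted p = 0.0741).

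Rarb is itself a well-known target of retinoic acid through the repeat shown above. Its intensities were 21.5 to 28.6 in MLN, 19.8 to 49.2 in liver, 22.1 to 29.6 in PLN and 26.6 to 36.7 in spleen, with the highest value on liver array 4. The organs overlapped fully, and MLN differed from liver by -0.09 (SE 0.26; limma adjusted p = 1). Cyp26a1 and Rarb, the 2 members with the repeat, thus had MLN minus liver differences of 1.15 and -0.09, both at low intensity.

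Stra8, a gene of germ cells entering meiosis, first found as stimulated by retinoic acid, had intensities of 59.6 to 64.6 in MLN, 29.6 to 96.0 in liver, 35.8 to 85.2 in PLN and 63.2 to 70.2 in spleen. The MLN arrays fell inside the ranges of liver and PLN, and the difference from liver was 0.17 (SE 0.32; limma adjusted p = 1).

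Across all probe sets few differed by organ. In limma's F-test over the 4 organs 0 of the 9 member probe sets passed (2, Stra6 and Dhrs3, with p under 0.05 before adjustment, against 3.48% of all probe sets), as did 0.00491% of all 20380, and in the blocked fit 0 of 9 and 0.211% of all. MLN minus liver passed for 0 of 9 (4 unadjusted, against 4.85% of all probe sets) and 0.0245% of all, and in the blocked fit for 1 of 9, Stra6, and 0.599% of all. Against the mean of the other organs 0 of 9 passed in either fit. An unadjusted p under 0.05 was held by 5 members for MLN, against 4.16% of all probe sets, by 3 for liver, against 4.40%, by 0 for PLN, against 2.37%, and by 2 for spleen, against 3.15%. For MLN these were Stra6, Crabp2, Dhrs3 and Cyp26a1 as higher and Rarg (1419415_a_at) as lower. For liver they were Stra6, Crabp2 and Dhrs3, all lower. For spleen Rarg (1419415_a_at) was higher and Dhrs3 lower. After adjustment 0.0343% of all probe sets passed for MLN, or 0.250% with the block, 0.00491% or 0.142% for liver, and 0% in both fits for PLN and for spleen. The mean that an organ is set against holds the other organs, so a gene that is high in MLN also counts toward a lower liver value. By replicate number, in contrast, 23.9% of all probe sets passed, and 2 of 9 members, Rara and Crabp2 (adjusted p = 0.0415). That count of 2 was 0 without MLN replicate 4 or without PLN replicate 4, and 1 without a variance trend in limma or without any one of Liver replicate 4, MLN replicate 3, PLN replicate 2, PLN replicate 3, Spleen replicate 3 or Spleen replicate 4. Crabp2 was highest on the array numbered 3 in MLN, PLN and spleen cultures. The arrays numbered 4 were all above those numbered 2 and 3 for 5.54% of all probe sets and for 2 of 9 members, Rara and 1419416_a_at of Rarg.

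**Figure D3:**
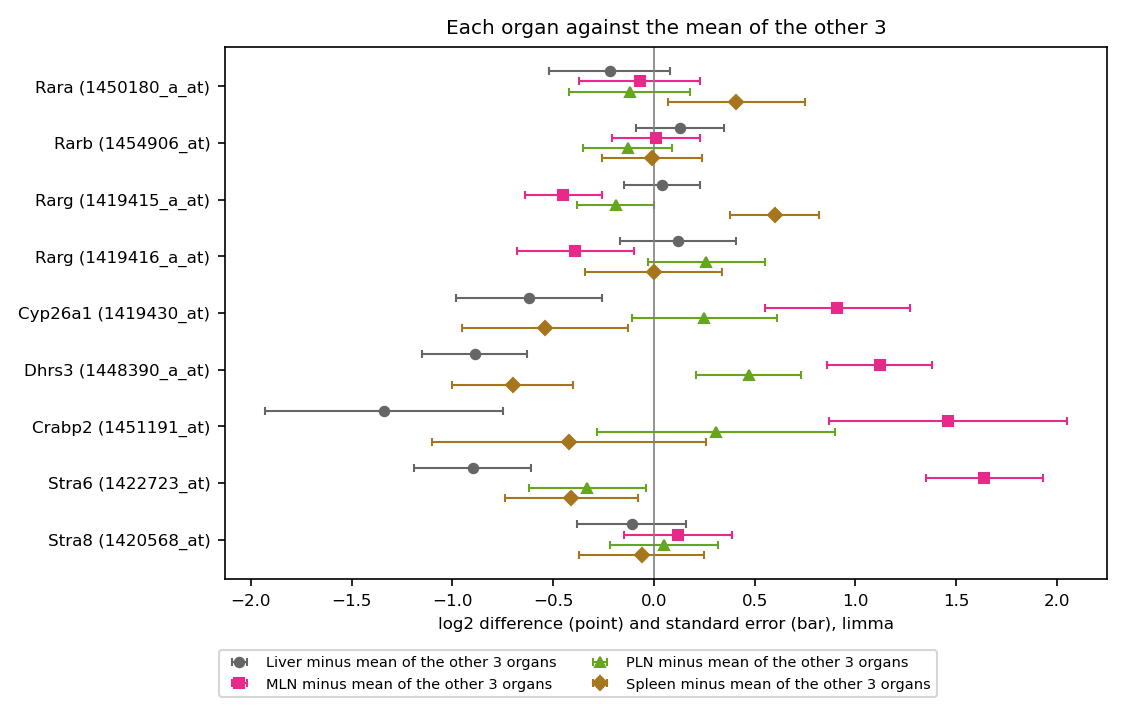
Log2 difference of each organ from the mean of the other 3 organs (point) with its standard error (bar), from limma without a block, for the 9 member probe sets. MLN points lie furthest right for Stra6 at 1.64, Crabp2 at 1.46, Dhrs3 at 1.12 and Cyp26a1 at 0.91, and liver points furthest left for the same genes; none passed the adjusted threshold.

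Other genes of the pathway were taken from lists. Of 12 probe sets for receptors and co-regulators, 0 passed between MLN and liver in either fit (1 before adjustment), with a median difference of -0.07 against -0.01 over all probe sets. The retinoid X receptor genes were in this list. Rxrb differed by -0.06 and Rxrg by -0.21, and the 2 probe sets of Rxra differed by -0.42 and -1.09 (blocked adjusted p = 0.466 and 0.0664). For the second Rxra probe set the MLN arrays 2, 3 and 4 had 75.4, 90.4 and 31.5 against 141, 222 and 116 in liver, with no overlap. The share of all probe sets with MLN below liver in this way was not counted. PLN arrays 2, 3 and 4 had 138, 170 and 109. Spleen arrays 3 and 4 had 177 and 56.6, the second of them inside the MLN range.

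Of 37 probe sets for retinoid metabolism and transport, 0 passed in either fit (1 unadjusted), with a median of 0.01. Aldh1a2, the retinaldehyde dehydrogenase known from dendritic cells of the gut lymph nodes, had intensities of 15.4, 48.2 and 15.1 on MLN arrays 2, 3 and 4. The 8 other arrays had 1.70 to 9.30, so all MLN arrays were above them, at the low end of the intensity range. MLN differed from liver by 0.92 (SE 0.26; limma adjusted p = 0.586; blocked 0.184). Aldh1a1 differed by -0.07 and the 3 probe sets of Aldh1a3 by 0.53, 0.13 and 0.82, none of which passed.

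Genes known to be induced by retinoic acid in T cells were listed with earlier results of these data known, so the list is no independent support for a direction. Of its 16 probe sets for 7 genes, 15 were higher in MLN than in liver, against 48.4% of all probe sets, with a median of 1.01. The 16 are not separate genes, since 6 of them measured Tgm2, which weighs on the count and the median. Without the block 1 passed, that of Hic1, a transcriptional repressor (1.48, SE 0.15; adjusted p = 0.00985). In the blocked fit 6 passed, all higher in MLN: Hic1 and 5 of the 6 probe sets of Tgm2, a transglutaminase, with differences of 1.99 to 2.96 (adjusted p = 0.000875 to 0.00753), the other at 0.18. Of 9 probe sets for 5 genes known as induced in other cells, 0 passed in either fit (2 unadjusted), 2 were higher, and the median was -0.23. The 2 with an unadjusted p under 0.05 measured the same gene, and 1 of the 9 lay in the upper 60% by mean level.

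**Figure D4:**
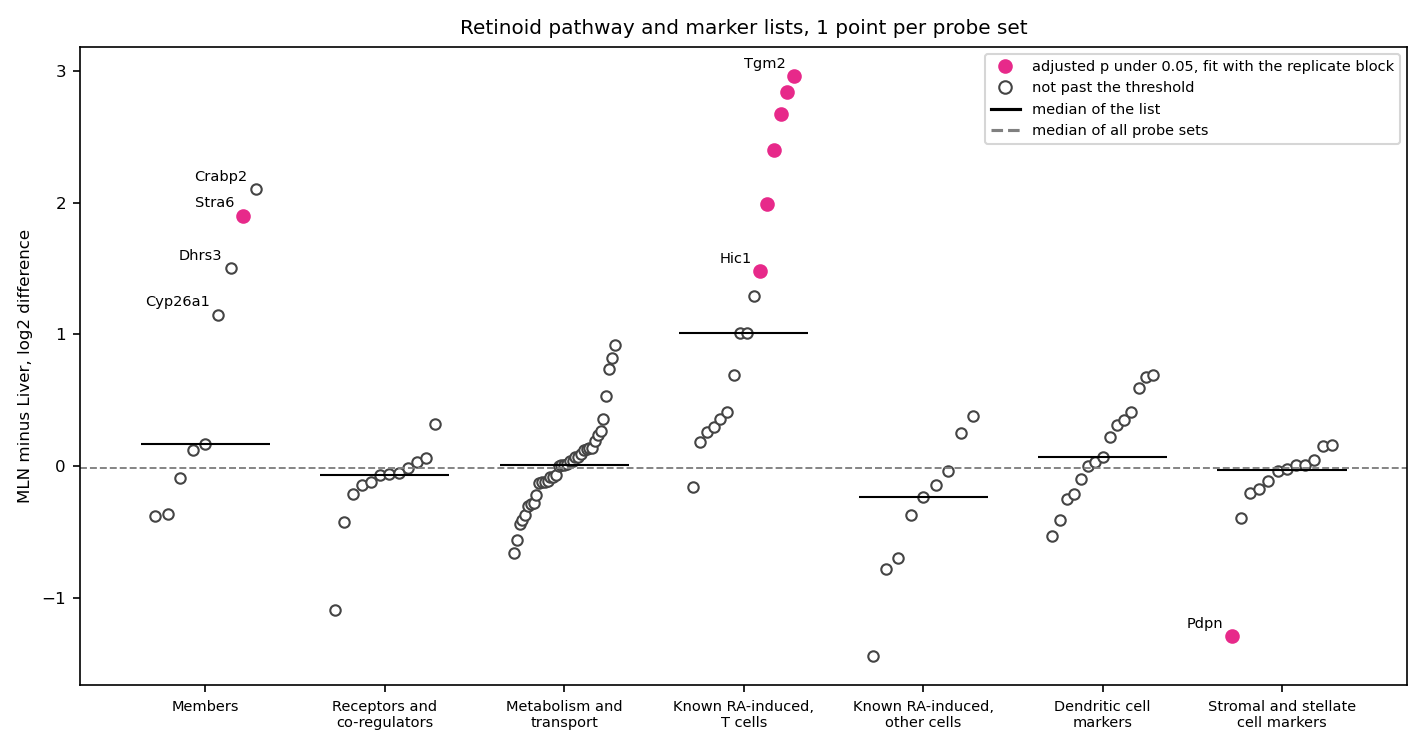
MLN minus liver log2 differences from limma for the members, 4 retinoid lists and 2 marker lists, with 1 point per probe set sorted within its list, filled where the adjusted p was under 0.05 in the blocked fit; black lines are list medians and the dashed line is the median of all probe sets, -0.01. The filled points are Stra6, Hic1 and 5 probe sets of Tgm2 on the upper side and Pdpn, at -1.29, on the lower side.

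Markers of the other cells that the cultures could hold were measured as well. Summed over 15 probe sets of 10 genes, dendritic cell intensities ran from 5969 to 9633 per array in liver, 7015 to 11182 in MLN, 7086 to 10403 in PLN and 5769 to 11186 in spleen cultures, and overlapped throughout. None of the 15 passed between MLN and liver in either fit (2 unadjusted), with a median of 0.07. Macrophage and monocyte markers, 12 probe sets of 8 genes, summed to 2505 to 3381 in MLN and 3156 to 4102 in liver, with 1 of 12 higher in MLN and none passing in either fit (2 unadjusted). B cell markers summed to 622 to 713 in MLN and 447 to 946 in liver. Hepatocyte markers summed to 144 to 153 in MLN, 132 to 196 in liver, 130 to 225 in PLN and 204 to 228 in spleen. Stromal and stellate cell markers, 12 probe sets of 7 genes, summed to 558 to 718 in MLN and 759 to 857 in liver. PLN had 678 to 904 and spleen 850 to 1009. The MLN range was below the liver range, although 5 of the 12 were higher in MLN, with a median of -0.03. The part of these cells in the values of Stra6, Crabp2, Dhrs3 and Cyp26a1 was not tested. In bulk RNA, fewer cells of a type and less RNA per cell cannot be told apart.

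The genes whose pattern over the 11 arrays was most like that of a member were sought for the members in the upper 60% by mean level, among 7682 other genes, by Pearson's r, as a description of arrays that share their replicate numbers. For Stra6 they were P2rx7, an ATP-gated channel (r = 0.871, and 0.908 after the means of the numbers were subtracted), Gng12, a G protein subunit (0.862 and 0.855), and Hic1 (0.860 and 0.877). For Rara they were Sys1 (0.958 and 0.873), Wdr81 (0.958 and 0.829) and Il3ra (0.957 and 0.828). For Rarg, through 1419415_a_at, they were Cnih1 (0.930 and 0.936), Nap1l1 (0.888 and 0.925) and Dap3 (0.856 and 0.845). For Rara all 3 values were lower once the number means were removed. The genes were chosen by the first value, so a lower second value is no test of the replicate numbers.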

How the data were processed

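The values deposited by the authors are linear intensities, already scaled to a common level, as the equal trimmed means (2% at each end) show. How probes were summarised, and with what software, is not given in the sources used here. Of 22690 probe sets, 64 controls, 691 with several symbols and 1555 with none were left out. Symbols were brought to those of GRCm38.p6 for 20351 probe sets. Intensities were taken as log2(intensity + 16) and quantile normalized, with no level filter. All 11 arrays entered 1 fit with 4 organ means in limma 3.58.1 (R 4.3.3; lmFit, eBayes with a variance trend), with Benjamini-Hochberg adjustment at 0.05 over all 20380 probe sets. The 7 comparisons were the F-test over organs, each organ against the mean of the others, MLN minus liver, and the F-test over replicate numbers. The fit was tested on simulated data.

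The replicate numbers of the labels pair the arrays: after organ means were subtracted, 15 pairs of arrays of different organs with the same number correlated at 0.367 to 0.704 over 12228 probe sets, and 30 pairs with different numbers at -0.662 to 0.0793. The blocked fit is given where it changes a call, and for some members and list genes where it does not. Alternatives were the block, fixed or random, other scalings, pseudocounts, filters and variance settings, and leaving out each array. All member probe sets are named; list genes are named where a probe set passed in either fit, and retinoid X receptors and retinaldehyde dehydrogenases always. The 3 genes of like pattern were taken per member. The members and lists were chosen with earlier results of these data known. The number of arrays limits the precision.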

Additional observations from a re-analysis of the deposited data

How the results depend on the processing

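Stra6, Crabp2, Dhrs3 and Cyp26a1 kept a higher value in MLN than in liver under every alternative run (the filter on the upper 60% by level keeps only Stra6 of these); the ranges were 1.39 to 2.17, 1.23 to 2.88, 0.75 to 2.33 and 0.63 to 1.77. With the replicate block, fixed or random, the count of members passing for MLN minus liver was 1 against 0, and for MLN against the other organs 1 with the random block against 0. Leaving out each array gave 0 to 1 for MLN minus liver in either fit, and 0 to 1 for MLN against the others in the blocked fit. By replicate number the count of 2 was 1 without a variance trend, and 0 to 2 with an array left out (0 without MLN replicate 4 or PLN replicate 4). All-probe-set counts for MLN minus liver were 5, and 122 and 46 with the fixed and random block, 9 as deposited, 8 after median centring and 13 in the upper 60% by level; with an array left out they were 0 to 10, or 26 to 114 blocked. For MLN against the others they were 7, and 51 and 23 with the blocks and 4 without a trend, and 0 to 6 with an array left out (8 to 52 blocked); for the F-test over organs 1, and 43, 12, 0 (pseudocount 64), 2 (upper 60%) and 4 (1 probe set per gene), and 0 without any one of 10 of the 11 arrays (4 to 49 blocked); for liver 1, and 29 and 5 with the blocks, 0 in 4 other settings and 0 without any one array (3 to 51 blocked); for spleen 0, and 0 to 13 blocked with an array left out (13 without Spleen replicate 4); by number 4869, and 3245 (1 probe set per gene) and 3215 (no trend).

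Small differences changed sign. Leaving out 1 array, MLN minus liver ran from -0.15 to 0.41 for Rara, -0.27 to 0.22 for Rarb (-0.33 to 0.26 blocked) and -0.12 to 0.46 for Stra8 (-0.15 to 0.62 blocked). Against the other organs MLN ran from -0.33 to 0.13 for Rara (-0.11 to 0.07 blocked), -0.05 to 0.11 for Rarb (-0.09 to 0.14 blocked) and, blocked, -0.06 to 0.32 for Stra8. For Rarb this difference, 0.01, was -0.07 as deposited, -0.01 after median centring and 0 with a pseudocount of 64. The cause was not tested. Where a spleen array was left out, the other is assumed to vary like the other organs.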

Other observations

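Among the marker genes, 2 passed in the blocked fit for MLN minus liver. Pdpn, which encodes the membrane glycoprotein podoplanin, had intensities of 72.8, 59.8 and 69.2 on MLN arrays 2, 3 and 4 and 193, 263 and 149 on liver arrays, a difference of -1.29 (SE 0.21; blocked adjusted p = 0.0342; 0.128 without the block). PLN arrays lay between, at 103 to 139, and spleen arrays had 216 and 189. Cd2, a T cell adhesion molecule, differed by -0.55 (SE 0.15; blocked adjusted p = 0.0342; 0.503 without the block). The other 12 T cell probe sets and 11 stromal and stellate cell probe sets did not pass.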
